A study of Mus musculus and Homo sapiens with 34 samples.

Results

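In a study of lung adenocarcinoma cultures, 10 genes of the bone morphogenetic protein (BMP) pathway were followed through every comparison, among 21401 gene identifiers in the mouse tables and 27030 in the human tables. They were chosen by name: the ligands Bmp2 and Bmp4, the secreted antagonist Grem1, the receptors Bmpr1a and Bmpr2, the inhibitory SMADs Smad6 and Smad7, and the target genes Id1, Id2 and Id3. All 10 were listed in all 7 count tables. RNA had been sequenced from 34 libraries in 17 groups of 2, of which 22 were mouse and 12 human. Mouse 3154 organoids carried p53frt, Rosa-FSF-CreERT2 and Hnf4aflox, so that 4-hydroxytamoxifen (4OHT) activates CreERT2 and deletes Hnf4a, which encodes a gut and liver transcription factor. They were given ethanol or 4OHT (2 mM per the labels) for 2 days and harvested 2 weeks later, or were given ethanol or 4OHT with vehicle or 3 nM MRTX1133, a small-molecule inhibitor, in an experiment labelled 48 hours. For that experiment the labels do not say separately how long 4OHT was given, so its deletion results are those of the 48-hour experiment and not a stated time after deletion. Mouse 1027B organoids and 3311 cells carried p53frt, Rosa-FSF-CreERT2, Foxa1flox and Foxa2flox, and no library of either was labelled with 4OHT. 1027B received vehicle, 10 nM trametinib (a MEK inhibitor) or 20 nM MRTX1133, and 3311 received vehicle or 50 nM trametinib, all for 48 hours. Trametinib at 20 nM or vehicle was given for 48 hours to 2 human lung adenocarcinoma lines, H358 and H1651. In a separate experiment H1651 with a lentiviral HNF4A construct was kept with or without 1 μg/mL doxycycline for 7 days. Each culture is 1 line, and the labels do not say whether the 2 replicates came from separate cultures, so p-values measure only the spread between these libraries, which may be technical. The organoid medium contained L-WRN conditioned medium, which comes from cells that secrete Wnt3a, R-spondin 3 and the BMP antagonist Noggin, while the 3311, H358 and H1651 media contained serum.

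BMP ligands are secreted dimers that bring together type I receptors such as BMPR1A and type II receptors such as BMPR2. The activated type I receptor phosphorylates SMAD1, SMAD5 and SMAD9, which enter the nucleus with SMAD4 and switch on genes that include Id1, Id2, Id3, Smad6 and Smad7. ID proteins bind E proteins and keep them off DNA, SMAD6 and SMAD7 feed back to restrain the pathway, and GREM1 binds BMP2 and BMP4 outside the cell. In the gut and the lung this pathway balances growth and differentiation of epithelial progenitors.

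The promoters shown are those of Id2, Bmp4 and Grem1, the 3 mouse members with the deepest falls that passed. Each is the 250 bases before the RefSeq start on GRCm38.p6, 5′ to 3′ on the gene's own strand, which is the minus strand for all 3. Capitals mark the GC-rich SMAD element GGCGCC and the ETS core CCGGAA or its complement TTCCGG, where ETS factors act downstream of ERK signalling.
Id2, chr12:25096093-25096342: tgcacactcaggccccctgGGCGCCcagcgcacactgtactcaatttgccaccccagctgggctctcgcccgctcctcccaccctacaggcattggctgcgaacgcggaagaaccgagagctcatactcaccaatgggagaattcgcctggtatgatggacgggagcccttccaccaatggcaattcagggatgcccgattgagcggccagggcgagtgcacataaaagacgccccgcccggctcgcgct
Bmp4, chr14:46390670-46390919: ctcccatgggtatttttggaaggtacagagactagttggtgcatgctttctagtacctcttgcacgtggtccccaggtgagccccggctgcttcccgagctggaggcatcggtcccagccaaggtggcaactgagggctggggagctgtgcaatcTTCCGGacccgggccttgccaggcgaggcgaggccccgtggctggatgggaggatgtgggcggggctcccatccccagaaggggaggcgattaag
Grem1, chr2:113758649-113758898: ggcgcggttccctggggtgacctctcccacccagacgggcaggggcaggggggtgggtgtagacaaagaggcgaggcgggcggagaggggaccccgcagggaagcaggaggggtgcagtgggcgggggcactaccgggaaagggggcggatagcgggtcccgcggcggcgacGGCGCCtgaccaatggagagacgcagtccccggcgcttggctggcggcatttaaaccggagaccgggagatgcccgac
GGCGCC lies 231 bases before the start of Id2 and 78 bases before that of Grem1, and TTCCGG lies 95 bases before the start of Bmp4. Promoters were matched for 7 of the 10 members, with Bmp2, Id1 and Smad7 not among them. GGCGCC, searched on both strands as all motifs were, was in 4 of the 7 (Bmpr1a, Bmpr2, Grem1 and Id2), against 9.59% of 32851 promoters of this length. The ETS core was in 1 of the 7, against 12.03% of promoters, and the SMAD palindrome GTCTAGAC was in none of them, against 0.167%. The shorter SMAD box CAGAC, which shares only the letters AGAC with the palindrome, was in 2 of the 7 (Grem1 and Id3), against 42.2%. E-boxes, CANNTG, which E proteins bind, were in 2 of the 7 (Bmp4 and Id2), against 66.2%. These are matches of letters and not sites of binding.

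Total counts per library ran from 19692517 to 45284286. Values are CPM, counts scaled to a common library size by TMM, given for replicate 1 and then replicate 2, and 3 counts, the floor below which no fold is given, stood at 0.0645 to 0.162 CPM. Each table was scaled on its own, so a level set beside that of another culture is approximate. Hnf4a had 315 and 427 CPM with ethanol and 53.5 and 67.96 CPM with 4OHT at 2 weeks. In the 48-hour experiment it had 221 and 230.1 CPM with ethanol and vehicle and 49.4 and 50.4 CPM with 4OHT and vehicle. Dusp6, a target of ERK signalling, fell with trametinib in 1027B (-2.80 ± 0.22, log2 ± SE), 3311 (-1.87 ± 0.22) and H358 (-7.59 ± 0.23) but had an adjusted p of 0.149 in H1651, where its level went from 49.8 and 51.8 to 5.27 and 7.46 CPM. With MRTX1133 Dusp6 fell in 1027B (-1.20 ± 0.21). In 3154 it went from 135 and 212 to 134 and 193 CPM with Hnf4a intact and from 279.7 and 292 to 186 and 191 CPM after deletion, and neither change passed (adjusted p = 0.933 and 0.198).

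The 5 epithelial markers summed to between 3601 and 10911 CPM in every library, and in H358 to between 5337 and 5534 CPM with vehicle and between 3601 and 3882 CPM with trametinib, although H1651 held only 2.07 and 1.25 CPM of EPCAM and 7.02 and 6.41 CPM of KRT19 with vehicle. The 8 fibroblast markers, of which the 3154 and 1027B tables list only 1 or 2, summed to at most 1.69 CPM in 1027B, 0.853 CPM in 3154 and 26.2 CPM in 3311, but to between 413 and 759 CPM in H1651. The 3311 sums were 21.5 to 26.2 CPM with vehicle and 17.3 to 17.5 CPM with trametinib. In H358 they summed to between 41.2 and 50.0 CPM with vehicle, where 3 of the 8 were at 0 counts, and between 246 and 349 CPM with trametinib. That rise was mostly LUM, from 12.3 and 7.76 CPM to 200 and 127 CPM, and COL1A1, from 36.4 and 32.3 CPM to 141 and 111 CPM. COL3A1 went from 0.518 and 0.627 CPM to 4.83 and 7.42 CPM, and the other fibroblast markers stayed at or under 0.473 CPM. The 5 endothelial markers summed to at most 21.2 CPM in any library, and in H358 to 12.1 to 14.4 CPM with vehicle and 21.1 to 21.2 CPM with trametinib. In 3154 at 2 weeks they summed to 5.08 to 5.93 CPM with ethanol and 2.17 to 2.55 CPM with 4OHT. Pecam1 alone had 5.93 and 5.03 CPM with ethanol and 2.04 and 2.21 CPM with 4OHT. The 5 immune markers summed to at most 44.7 CPM, with 18.6 to 44.7 CPM for ethanol and 10.1 to 13.5 CPM for 4OHT in 3154 at 2 weeks, and 9.55 to 15.7 CPM with vehicle and 21.8 to 28.6 CPM with trametinib in 3311. Csf1r carried both shifts, and Cd68 went the other way. At 2 weeks Csf1r had 13.2 and 38.1 CPM with ethanol and 3.45 and 5.14 CPM with 4OHT. Cd68 had 5.11 and 6.24 CPM with ethanol and 6.30 and 7.76 CPM with 4OHT. In 3311 Csf1r went from 4.68 and 11.7 CPM to 20.2 and 27.7 CPM, and Cd68 from 4.87 and 4.06 CPM to 1.54 and 0.951 CPM. In 1027B the immune markers summed to 7.85 to 8.28 CPM with vehicle, 6.62 to 7.26 CPM with trametinib and 5.43 to 5.53 CPM with MRTX1133. The 3 lung lineage markers summed in 1027B to 498 to 509 CPM with vehicle, 611 to 617 CPM with MRTX1133 and 685 to 699.6 CPM with trametinib. In the 48-hour 3154 experiment they summed to 444 to 479 CPM with ethanol and vehicle, 561 to 588 CPM with ethanol and MRTX1133, 520.2 to 537 CPM with 4OHT and vehicle and 587 to 602 CPM with 4OHT and MRTX1133. In H358 they summed to 239.5 to 267 CPM with vehicle and 287 to 296 CPM with trametinib, but moved in opposite directions. FOXA2 fell there from 83.0 and 82.6 CPM to 3.95 and 6.87 CPM. FOXA1 rose from 38.7 and 52.9 CPM to 112 and 113 CPM, and NKX2-1 from 118 and 132 CPM to 170 and 176 CPM. In 1027B the epithelial sums were 9027 to 9170.5 CPM with vehicle, 7992 to 8126 CPM with MRTX1133 and 7418 to 8260 CPM with trametinib. In 3154 they were 7319 to 7641 CPM with ethanol and MRTX1133, 7854 to 8214 CPM with 4OHT and vehicle and 6795 to 7293 CPM with 4OHT and MRTX1133. In H1651 they were 4419.7 to 4422 CPM without and 5716 to 6204 CPM with doxycycline. Other marker sums that did not overlap between compared groups were under 6 CPM, except the fibroblast sums with and without doxycycline in H1651, given with BMP2. The part of these shifts in the members' changes was not tested. One pair of libraries stood apart, the 2 with ethanol and vehicle of the 48-hour 3154 experiment. Their count differences were 87.9 times counting noise (chi-square per degree of freedom), against 5.90 to 46.2 in the other 16 groups. This value cannot say which of the 2 was odd. Replicate 1, with 72.7 CPM of the member Id1 against 341 CPM in replicate 2, is named below as the library that stood apart. Results that rest on it are given with and without it. The next highest value, 46.2, was that of ethanol with MRTX1133, whose replicate differences correlated with those of this pair at 0.549. Whether 1 library or the replicate 1 libraries of both ethanol groups were odd was not tested. In bulk RNA, fewer cells that express a gene and less RNA per cell cannot be told apart.

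At least 1 member passed in 10 of the 14 comparisons, with more falls than rises in 1027B and 3154, both in 3311 and only rises in H358. A member is called when its adjusted p, by edgeR's quasi-likelihood test over all genes tested, is under 0.05. With trametinib, 1 member rose and 3 fell in 1027B, where 26.7% of all genes were called. In 3311 3 rose and 2 fell (background 39%), 7 rose and none fell in H358 (46.8%), and none passed in H1651, where no gene of 18277 did (0%). In H1651 597 genes had an unadjusted p under 0.05, and DESeq2 called 44 genes and no member. With the replicate number as a block, ID1 (adjusted p = 2.63e-06), BMP2 (8.09e-05) and ID2 (0.000227) passed as lower there and BMP4 (0.0049) as higher. The labels do not say that these numbers pair the H1651 libraries, whose replicate differences correlated at 0.623. The median change of the members that passed the filter on low counts was -0.56 in 1027B, 0.03 in 3311 and 0.80 in H358, beside -0.0115, 0.00814 and 0.0152 for all genes. MRTX1133 in 1027B lowered 2 members (background 6.27%). No member passed between MRTX1133 and trametinib in 1027B (0%), where 2357 genes had an unadjusted p under 0.05 and DESeq2 called 712 genes (4.89%), Bmp4 and Id2 among them. The replicate numbers were taken to pair the 1027B libraries, from the correlation of replicate differences (0.243 to 0.414) and not from a label. With them as a block 7 members passed with trametinib (44.9% of genes), 6 with MRTX1133 (24.1%) and 5 between the inhibitors (14.1%). Doxycycline raised 1 member in H1651 (1.42%).

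In 3154, deletion of Hnf4a lowered 2 members at 2 weeks (background 9.81%), lowered 3 and raised 1 with vehicle in the 48-hour experiment (31%), and lowered 5 with MRTX1133 (27.7%). MRTX1133 changed no member while Hnf4a was intact (0.349%) and lowered 2 after its deletion (4.64%). The difference between these responses, the interaction of deletion and MRTX1133, passed for no member and no gene (0%), although 1150 genes had an unadjusted p below 0.05 and DESeq2 called 36. In H358 against H1651 the difference of the trametinib responses passed for 4 members, all higher in H358 (19.3%). Leaving out single libraries moved several of these counts by over 1.5 times. At 2 weeks the count fell to 0 without 4OHT replicate 1 and to 1 without 4OHT replicate 2. With vehicle at 48 hours it fell to 2 without either 4OHT library, and without the library that stood apart 3 members fell and none rose. With MRTX1133 it fell to 3 without ethanol replicate 1 and to 2 without either 4OHT library, and the count for MRTX1133 after deletion fell to 0 without any 1 of its 4 libraries. Without ethanol and vehicle replicate 2, which leaves the library that stood apart as the only control, 2 members passed for MRTX1133 with Hnf4a intact. In 1027B the count fell to 2 without trametinib replicate 1 and, for MRTX1133, to 1 without MRTX1133 replicate 1, and in H1651 the doxycycline count rose to 2 without replicate 1 of either group.

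**Figure D1:**
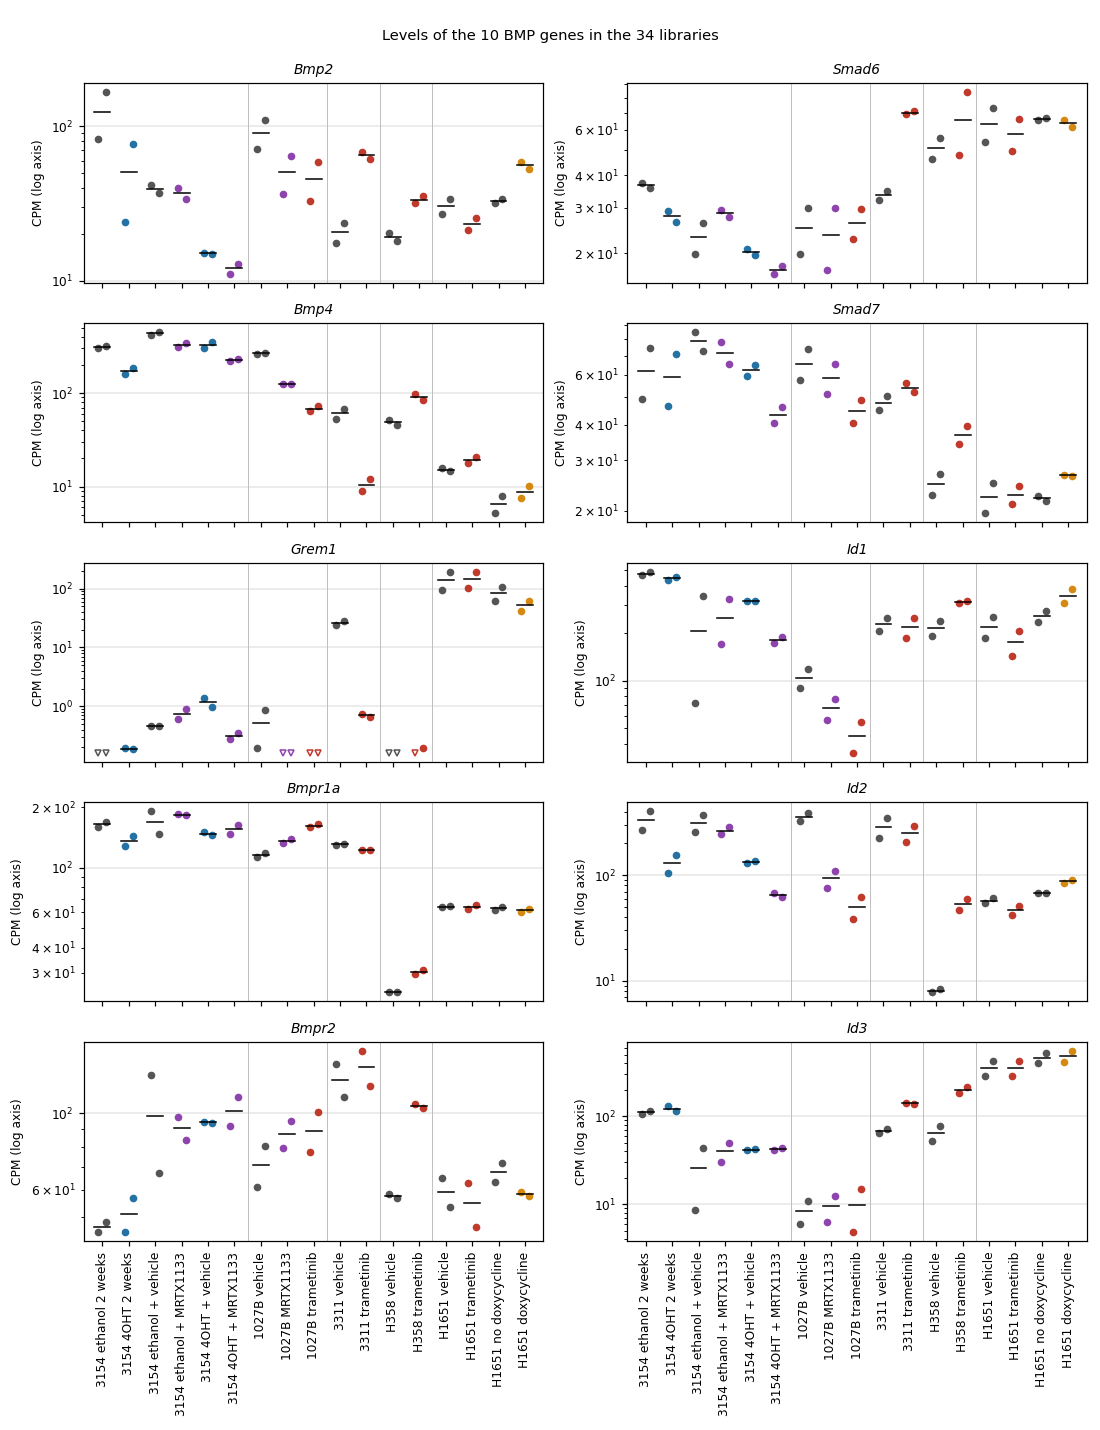
Levels of the 10 members in the 34 libraries, in CPM on a log axis with its own range for each gene. Each point is 1 library, the bar is the mean of the 2 libraries of a group, colours mark ethanol, vehicle or no doxycycline (grey), 4OHT with vehicle or alone (blue), MRTX1133 (purple), trametinib (red) and doxycycline (orange), and open triangles are libraries under 0.162 CPM, drawn at that level. Bmp4 and Id2 step down from vehicle to inhibitor in 1027B, while Id2 steps up in H358.

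Per kilobase of exon (GENCODE M21, mouse only), Id1, Id2 and Bmp4 had the 3 highest levels among the members in both organoids with vehicle, and Grem1 was at the bottom. In 1027B with vehicle Id2 had 146 ± 15.9 CPM per kb (mean ± SD, n = 2), Bmp4 118 ± 1.87 and Id1 90.4 ± 17.4. Bmp2 followed at 25.4 ± 7.48 CPM per kb and Bmpr1a at 18.2 ± 0.657, while Id3 had 4.67 ± 1.9 and Grem1 0.128 ± 0.115. In 3311 with vehicle Id1 had 197 ± 26.1 CPM per kb and Id2 117 ± 35.7, but Bmp4 had only 26.9 ± 4.72 and Grem1 reached 6.21 ± 0.652. The receptor Bmpr2 had 6.96 ± 1.07 CPM per kb there, so that Grem1, Bmpr2 and Bmp2 (5.79 ± 1.21) lay within their spread of each other. Exons of Bmp4 and Bmpr1a share 3.96% and 4.57% of their bases with a gene on the opposite strand, and the other mouse members share none.

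Bmp4, a ligand, fell with inhibitor in 1027B and 3311 and with Hnf4a deletion in 3154, in 6 of its 9 mouse comparisons, and rose in H358. In 1027B it had 262 and 268 CPM with vehicle, 126 and 126 CPM with MRTX1133 and 64.4 and 72.4 CPM with trametinib, 3 groups that did not overlap. The fall with trametinib (log2 change -1.96 ± 0.10 SE, adjusted p = 0.000379) left 25.8% of the vehicle level, and the fall with MRTX1133 (log2 change -1.07 ± 0.10 SE, adjusted p = 0.00539) left 47.5%. The difference of the 2 inhibitors at these doses was 0.88 on the log2 scale (95% interval 0.65 to 1.12) with an adjusted p of 0.0648. With the replicate number as a block it passed at an adjusted p of 0.000989, and that of Id2 at 0.0024. In 3311 Bmp4 went from 53.1 and 68.1 CPM to 9.07 and 11.9 CPM (log2 change -2.53 ± 0.21 SE, adjusted p = 0.000544).

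In 3154 the level of Bmp4 at 2 weeks was 304 and 317 CPM with ethanol and 161 and 184 CPM with 4OHT (log2 change -0.85 ± 0.13 SE, adjusted p = 0.0185). At 48 hours it was 420.0 and 449 CPM with ethanol and vehicle, 315 and 347 CPM with ethanol and MRTX1133, 303 and 352 CPM with 4OHT and vehicle, and 223 and 234 CPM with 4OHT and MRTX1133. Both 4OHT groups lay below their ethanol partner. The log2 changes (± SE) with deletion were -0.41 ± 0.13 (adjusted p = 0.0411) with vehicle and -0.54 ± 0.13 (adjusted p = 0.0166) with MRTX1133. The first of these calls was lost with upper-quartile scaling (adjusted p = 0.107), with a minimum of 10 counts in every library (0.0536) and in a fit of the 4 libraries alone (0.0982). Without the library that stood apart the call held (log2 change -0.46, adjusted p = 0.0415), and it was lost without any 1 of the other 3 (adjusted p from 0.0763 to 0.279). At 2 weeks it was lost without either 4OHT library, and with MRTX1133 it was lost without either 4OHT library or ethanol replicate 2. In the human lines BMP4 went from 51.3 and 45.9 CPM with vehicle to 97.2 and 83.4 CPM with trametinib in H358 (log2 change 0.90 ± 0.12 SE, adjusted p = 0.000667). In H1651 it went from 15.6 and 14.6 CPM to 17.9 and 20.6 CPM, with no overlap. Its adjusted p there was 0.999, or 0.0049 with the replicate block.

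Bmp2, the other ligand, fell with Hnf4a deletion in the 48-hour experiment and rose with trametinib in 3311 and H358. In 3154 its level was 41.7 and 36.9 CPM with ethanol and vehicle and 15.2 and 15.003 CPM with 4OHT and vehicle (log2 change -1.38 ± 0.15 SE, adjusted p = 0.000797). With MRTX1133 the levels were 39.8 and 33.8 CPM with ethanol and 11.2 and 12.96 CPM with 4OHT (log2 change -1.61 ± 0.15 SE, adjusted p = 0.000453). Neither call was lost when any 1 library was left out or under any other setting tried. At 2 weeks Bmp2 had 82.98 and 165 CPM with ethanol and 24.2 and 76.5 CPM with 4OHT, groups that did not overlap but spread widely (adjusted p = 0.206). With the replicate block Bmp2 passed there (log2 change -1.44, adjusted p = 0.00121), though those numbers were not taken to pair the libraries. In 3311 it rose from 17.5 and 23.6 CPM to 68.2 and 61.3 CPM (log2 change 1.65 ± 0.18 SE, adjusted p = 0.00117), so that the trametinib libraries of 3311 had more Bmp2 and less Bmp4 than the vehicle libraries. In 1027B the direction was the opposite, from 71.4 and 109 CPM with vehicle to 32.6 and 58.2 CPM with trametinib and 36.6 and 64.6 CPM with MRTX1133, with adjusted p of 0.0913 and 0.232. With the replicate block both falls passed, at -1.01 (adjusted p = 6.3e-05) and -0.86 (adjusted p = 0.000434), and DESeq2 also called the fall with trametinib (adjusted p = 0.0273). H358 had 20.4 and 18.004 CPM with vehicle and 31.7 and 35.5 CPM with trametinib (log2 change 0.80 ± 0.13 SE, adjusted p = 0.00185). In H1651 BMP2 had 27.1 and 33.99 CPM with vehicle and 21.2 and 25.3 CPM with trametinib (adjusted p = 0.999, or 8.09e-05 with the replicate block). In the unblocked edgeR fit it was the one member that doxycycline raised, from 31.7 and 33.8 CPM to 58.8 and 52.7 CPM (log2 change 0.77 ± 0.09 SE, adjusted p = 0.0127). DESeq2 also called ID1 (0.43, adjusted p = 0.0272) and ID2 (0.37, adjusted p = 0.0476) higher with doxycycline. With the replicate block ID1, ID2, BMP4 and SMAD7 were also called higher, and GREM1 and BMPR2 lower. Doxycycline itself raised HNF4A there from 47.1 and 35.9 CPM to 94.4 and 96.8 CPM (log2 ± SE 1.20 ± 0.13). The direction of Bmp2 was thus down where Hnf4a was deleted in 3154 and up where HNF4A was induced in H1651, in other species and over other times, with no test between them. The fibroblast markers summed to between 664 and 759 CPM without doxycycline and between 413 and 456 CPM with it, and their part in the BMP2 change was not tested.

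Grem1, the antagonist, was near the floor in the organoids and in H358, and higher in 3311 with vehicle and in H1651. In 3311 it dropped with trametinib from 23.9 and 27.7 CPM to 0.753 and 0.647 CPM, which was the largest change of any member that passed (log2 change -5.19 ± 0.26 SE, adjusted p = 0.000262) and left 2.72% of the vehicle level. In H1651, GREM1 had 93.02 and 191 CPM with vehicle and 103 and 193 CPM with trametinib, a spread between replicates that was larger than the difference (adjusted p = 0.999). With and without doxycycline it had 41.9 and 62.7 CPM and 61.1 and 107 CPM (adjusted p = 0.358). With the replicate block it was called lower with doxycycline (log2 change -0.67, adjusted p = 2.14e-27). With 1 library left out the unblocked log2 change ran from -1.04 to -0.22. H358 had 2 and 1 counts with vehicle and 6 and 5 with trametinib, and 1027B had 4 and 16 counts with vehicle, 1 and 0 with MRTX1133 and 0 and 0 with trametinib. Neither table's Grem1 passed the filter on low counts, nor did that of the 2-week 3154 table, with 0 and 0 counts for ethanol and 6 and 5 for 4OHT. In the 48-hour 3154 experiment the counts were 11 and 11 with ethanol and vehicle, 16 and 22 with ethanol and MRTX1133, 37 and 22 with 4OHT and vehicle, and 7 and 10 with 4OHT and MRTX1133. The 4OHT group with vehicle was the highest and the 4OHT group with MRTX1133 the lowest. At this depth deletion raised Grem1 with vehicle (log2 change 1.37 ± 0.37 SE, adjusted p = 0.0256), and MRTX1133 lowered it after deletion (log2 change -1.90 ± 0.38 SE, adjusted p = 0.0359). The rise was lost with DESeq2 (adjusted p = 0.0685), in a fit of the 4 libraries alone (0.0524) and without any 1 of them (0.0637 to 0.189), and the fall was lost without any 1 of its 4 libraries (0.149 to 0.332).

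The receptors passed in few comparisons. Bmpr1a, the type I receptor, stayed between 113 and 191 CPM in all 22 mouse libraries and between 24.0 and 65.6 CPM in the 12 human ones. It passed in 1 of 9 mouse comparisons, trametinib in 1027B, where it rose from 113 and 119 CPM to 160.2 and 165 CPM (log2 change 0.49 ± 0.09 SE, adjusted p = 0.0105). That call was lost without vehicle replicate 1 or trametinib replicate 1 (adjusted p = 0.0563 and 0.059). The MRTX1133 libraries of 1027B lay between, at 133 and 139 CPM, with an adjusted p of 0.187 without a block and 0.0369 with it. Bmpr2, the type II receptor, passed in no mouse comparison of the unblocked fit. With the block it rose in 1027B with trametinib (log2 change 0.33, adjusted p = 0.00789) and with MRTX1133 (0.31, adjusted p = 0.0208). Its mouse levels were lowest in the 2-week 3154 experiment, at 45.3 and 48.5 CPM with ethanol and 45.3 and 56.8 CPM with 4OHT. In H358 BMPR2 rose from 58.3 and 56.7 CPM to 107 and 104 CPM (log2 change 0.87 ± 0.10 SE, adjusted p = 0.000297), and in H1651 it had 64.9 and 53.4 CPM with vehicle and 62.9 and 46.8 CPM with trametinib.

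**Figure D2:**
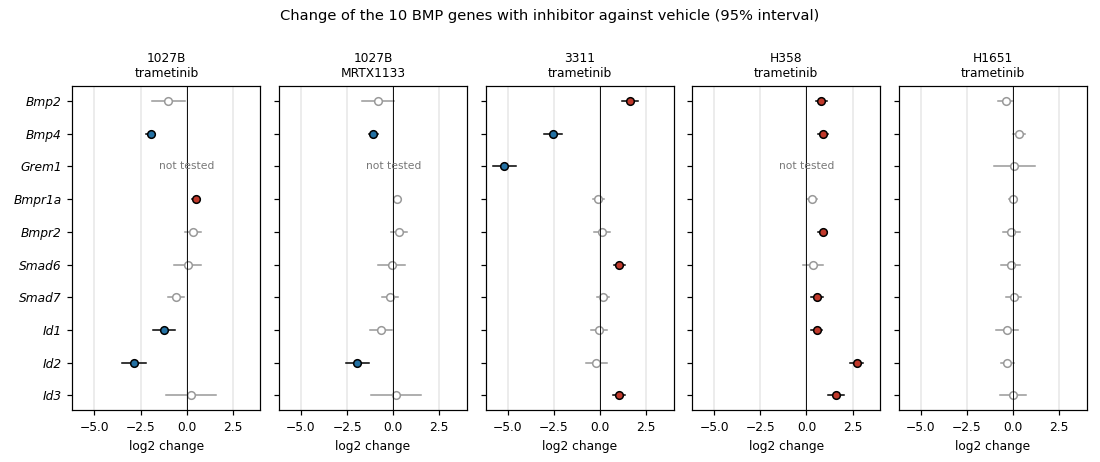
Log2 change of each member with inhibitor against vehicle in 5 comparisons, from edgeR, with its 95% interval. Filled points passed at an adjusted p under 0.05 (red higher, blue lower), open points did not, and "not tested" marks Grem1 where it did not pass the filter on low counts. Id2 lies at -2.84 in 1027B and at 2.73 in H358 with trametinib.

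The inhibitory SMADs passed in 4 tests, 1 each in 3311 and H358 and 2 for deletion with MRTX1133 in 3154. Smad6, which blocks BMP receptors and SMAD1, had 32.1 and 34.9 CPM with vehicle and 69.1 and 70.9 CPM with trametinib in 3311 (log2 change 1.06 ± 0.13 SE, adjusted p = 0.00176). Its 1027B groups overlapped, at 19.9 and 29.95 CPM with vehicle and 22.7 and 29.5 CPM with trametinib. Smad7, which acts on both BMP and TGF-beta receptors, rose in H358 from 22.6 and 26.8 CPM to 34.3 and 39.7 CPM (log2 change 0.58 ± 0.14 SE, adjusted p = 0.0108), a call lost without vehicle replicate 1 (adjusted p = 0.104). In 1027B Smad7 had 57.5 and 73.9 CPM with vehicle and 40.5 and 48.7 CPM with trametinib, which passed only with the replicate block (log2 change -0.55, adjusted p = 0.000867 against 0.0631) or with DESeq2 (0.0421). The block also separated the 2 inhibitors for Smad7 (adjusted p = 0.0185). In 3154 with MRTX1133 deletion lowered Smad6 from 29.4 and 27.7 CPM to 16.7 and 17.8 CPM (log2 change -0.73 ± 0.16 SE, adjusted p = 0.0135) and Smad7 from 78.3 and 65.3 CPM to 40.8 and 46.1 CPM (log2 change -0.72 ± 0.15 SE, adjusted p = 0.0107). Each of these 2 calls was lost without either 4OHT library or without ethanol replicate 1, with adjusted p from 0.0519 to 0.1. With vehicle the corresponding adjusted p were 0.421 and 0.125, and the test of the difference, the interaction, gave 0.651 and 0.786.

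Id2 was the target gene that changed most often, falling in 6 of 9 mouse comparisons and rising in H358. In 1027B it had 329 and 384 CPM with vehicle, 76.2 and 110.3 CPM with MRTX1133 and 38.3 and 61.6 CPM with trametinib. Trametinib left 13.997% of the vehicle level (log2 change -2.84 ± 0.27 SE, adjusted p = 0.00136) and MRTX1133 26.1% (log2 change -1.94 ± 0.26 SE, adjusted p = 0.0131), the latter call being lost without MRTX1133 replicate 1 (adjusted p = 0.0595). In 3311 the groups overlapped, at 223 and 346 CPM with vehicle and 208 and 292 CPM with trametinib (95% interval of the log2 change -0.77 to 0.41). In H358 ID2 rose from 7.74 and 8.33 CPM to 47.3 and 59.6 CPM (log2 change 2.73 ± 0.16 SE, adjusted p = 1.54e-05), the largest change among the members of that line. H358 with vehicle had the lowest ID2 level of the 6 human groups, and with trametinib it came to the range of H1651, where ID2 had 54.3 and 60.4 CPM with vehicle and 41.7 and 51.1 CPM with trametinib.

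In 3154, deletion lowered Id2 in all 3 tests, and after deletion MRTX1133 lowered it further. At 2 weeks it had 271 and 402 CPM with ethanol and 105 and 154 CPM with 4OHT (log2 change -1.38 ± 0.26 SE, adjusted p = 0.0334), a call lost without 4OHT replicate 1 (adjusted p = 0.119). At 48 hours the levels were 256 and 374 CPM with ethanol and vehicle and 244 and 286 CPM with ethanol and MRTX1133. With 4OHT they were 129.5 and 136 CPM with vehicle and 67.6 and 61.7 CPM with MRTX1133, so the 4 groups ran from high to low in that order with overlap only between the 2 ethanol groups. The deletion changes were -1.25 ± 0.19 (log2 ± SE) with vehicle and -2.03 ± 0.19 with MRTX1133, adjusted p 0.00263 and 0.00044, and neither was lost when 1 library was left out. Without the library that stood apart the change with vehicle was -1.50. MRTX1133 left 48.7% of the vehicle level after deletion (log2 change -1.04 ± 0.19 SE, adjusted p = 0.0274) and 84.1% before it (adjusted p = 0.669). The first call was lost without any 1 of its 4 libraries (adjusted p from 0.166 to 0.242). The interaction for Id2 was -0.79 (95% interval -1.39 to -0.18, unadjusted p = 0.0172, adjusted p = 0.583). Several of these comparisons share a group of libraries and are not independent of each other.

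**Figure D3:**
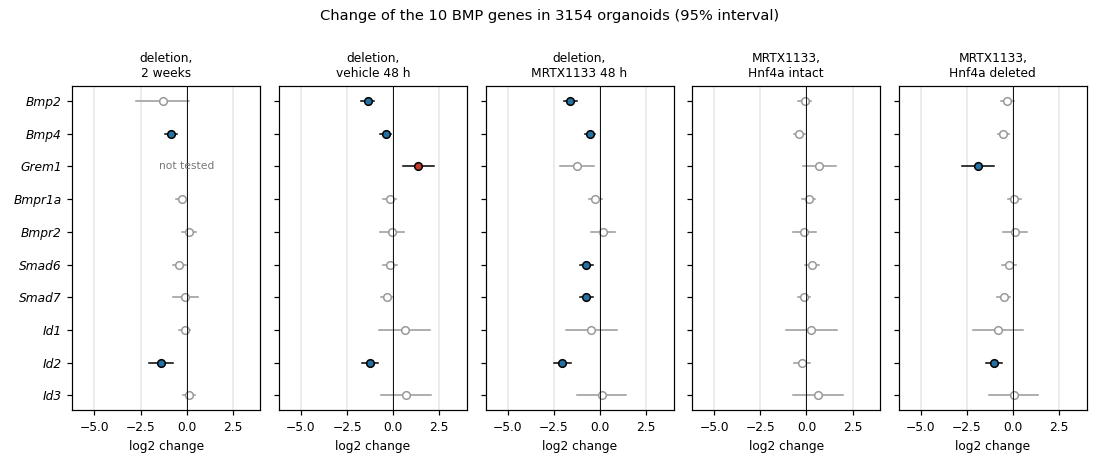
Log2 change of each member in 3154 organoids for deletion of Hnf4a (4OHT against ethanol, 3 panels) and for MRTX1133 against vehicle (2 panels), with 95% intervals. Filled points passed at an adjusted p under 0.05, open points did not, and "not tested" marks a gene that did not pass the filter on low counts. Id2 and Bmp4 lie below 0 in all 3 deletion panels, and Grem1 changes side between the vehicle and MRTX1133 panels.

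Id1 and Id3 were called in fewer comparisons than Id2. Id1 fell with trametinib in 1027B, from 90.6 and 119 CPM to 35.1 and 54.8 CPM (log2 change -1.22 ± 0.26 SE, adjusted p = 0.0156), a call lost without vehicle replicate 2 or trametinib replicate 1 (adjusted p = 0.073 and 0.0773). The MRTX1133 libraries had 56.6 and 77.1 CPM (adjusted p = 0.185, or 0.00134 with the replicate block). Id3 was scarce in 1027B and its groups overlapped, at 5.96 and 10.8 CPM with vehicle and 4.81 and 14.7 CPM with trametinib. In 3311 it was Id3 that rose, from 64.4 and 71.9 CPM to 141 and 139 CPM (log2 change 1.04 ± 0.13 SE, adjusted p = 0.00182), while Id1 had 207 and 249.7 CPM with vehicle and 186 and 249 CPM with trametinib. In H358 both rose, ID1 from 193 and 238 CPM to 311 and 321 CPM (log2 change 0.55 ± 0.12 SE, adjusted p = 0.00704) and ID3 from 51.8 and 77.6 CPM to 183 and 215 CPM (log2 change 1.62 ± 0.19 SE, adjusted p = 0.000297). The ID1 call was lost without vehicle replicate 1 (adjusted p = 0.0725). The H1651 groups had the highest ID3 of the human groups, at 287 and 423 CPM with vehicle and 284 and 424 CPM with trametinib.

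In 3154 Id1 and Id3 were called in none of the 5 comparisons. At 2 weeks Id1 had 463 and 489 CPM with ethanol and 434 and 455 CPM with 4OHT, and Id3 had 105 and 116 CPM and 130.1 and 114 CPM. At 48 hours replicate 1 was the lower library for both genes in both ethanol groups. Ethanol with vehicle had 72.7 and 341 CPM of Id1 and 8.67 and 43.3 CPM of Id3, and ethanol with MRTX1133 had 170.4 and 329 CPM and 29.8 and 50.01 CPM. The replicate differences of these 2 groups correlated at 0.549 over all genes tested. With 4OHT and vehicle the levels were 317 and 319.8 CPM of Id1 and 41.4 and 42.1 CPM of Id3. With vehicle the log2 change of Id1 with deletion was 0.62 (95% interval -0.75 to 1.99) with the library that stood apart and -0.11 without it, a change of sign with no call either way. For Id3 the values were 0.68 and -0.06. With MRTX1133 the change of Id1 was -0.46, and -0.85 without ethanol and MRTX1133 replicate 1, again with no call. With the library that stood apart as the only control, Id1 and Id3 were the 2 members called for MRTX1133 with Hnf4a intact, at 1.78 and 2.20, and both were also called for deletion with vehicle, at 2.12 and 2.26. After deletion Id1 went from 317 and 319.8 CPM with vehicle to 174 and 189 CPM with MRTX1133, 2 tight pairs with no overlap. Its adjusted p was 0.492 in the fit that shares 1 spread over 8 libraries and 0.000646 in the fit of these 4 libraries alone. In that smaller fit 5 members passed (26.5% of genes did), all lower: Id2, Bmp4, Smad7, Id1 and Grem1.

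H358 and H1651 received the same dose for the same time, and 4 members responded differently by the test of the difference itself. The response in H358 minus that in H1651 was 3.06 ± 0.21 (log2 ± SE) for ID2, 1.65 ± 0.37 for ID3, 1.22 ± 0.21 for BMP2 and 1.01 ± 0.21 for BMPR2, with adjusted p of 0.000235, 0.0159, 0.00606 and 0.0132. The call for ID3 was lost without H358 vehicle replicate 1 (adjusted p = 0.0576) and that for BMPR2 without H358 vehicle replicate 2 (0.0579). For ID1 and BMP4 the adjusted p were 0.0547 and 0.0625. The difference for DUSP6 was -4.56 ± 0.32 (adjusted p = 0.000279), so the ERK target itself fell further in H358. The lines also differed in fibroblast markers, of which mostly LUM and COL1A1 rose with trametinib in H358, as given above. The part of these markers in the members' changes was not tested.

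Of the 45 other BMP pathway genes listed (further ligands, antagonists, receptors, SMADs, targets and E proteins), those that passed the filter moved in both directions. With trametinib 8 rose and 3 fell among 25 in 1027B, 9 rose and 9 fell among 31 in 3311, and 13 rose and 5 fell among 29 in H358. Their median log2 changes were 0.08, 0.04 and 0.37, beside -0.0115, 0.00814 and 0.0152 for all genes tested, of which 26.7%, 39% and 46.8% were called. In H1651 none of 37 passed with trametinib and none of 38 with doxycycline, where 0% and 1.42% of all genes were called. Smad9, one of the SMADs that BMP receptors phosphorylate, rose with trametinib in 3 cultures. Its levels went from 0 and 0.271 CPM to 1.65 and 1.77 CPM in 1027B, from 13.1 and 12.4 CPM to 69.9 and 51.2 CPM in 3311 (2.24 ± 0.19, log2 ± SE) and from 0.751 and 0.836 CPM to 2.69 and 4.79 CPM in H358 (2.21 ± 0.35). Atoh8, a BMP target that encodes a basic helix-loop-helix factor, rose in the same 3 by 1.12 ± 0.26, 0.97 ± 0.16 and 2.93 ± 0.22. Bmp3, a BMP family member known to oppose the others, rose by 2.55 ± 0.25 in 1027B, 4.38 ± 0.38 in 3311 and 1.03 ± 0.15 in H358, and by 1.31 ± 0.25 with MRTX1133 in 1027B. In 1027B the trametinib calls of Smad9 and Atoh8 were lost without either trametinib library, and that of Atoh8 also without vehicle replicate 1 (adjusted p from 0.0582 to 0.098). Msx1, a homeobox target, fell in both mouse cultures, from 7.02 and 11.97 CPM to 0.178 and 0.793 CPM in 1027B and from 44.9 and 45.7 CPM to 13.3 and 18.5 CPM in 3311 (-1.51 ± 0.20). ID4, the fourth ID gene, rose in H358 from 19.6 and 32.6 CPM to 100.3 and 109 CPM (2.01 ± 0.21). Other antagonists moved in 3311: Chrd rose by 1.93 ± 0.21, and Fstl3, which binds activins and BMPs, fell with a log2 change of -2.44 ± 0.20. In H358 FSTL3 instead rose by 1.77 ± 0.14.

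With deletion in 3154, 2 of 28 listed genes that passed the filter rose and 2 fell at 2 weeks, 8 of 25 rose and 4 fell with vehicle in the 48-hour experiment, and 7 rose and 3 fell with MRTX1133. Without the library that stood apart 7 rose and 1 fell with vehicle. Their medians were -0.10, 0.23 and -0.15, beside 0.0185, 0.0103 and -0.00512 for all genes, of which 9.81%, 31% and 27.7% were called. The type I receptor Acvr1 rose in all 3, by 1.00 ± 0.18, 0.94 ± 0.19 and 0.81 ± 0.19 (log2 ± SE), as did the antagonist Nbl1, by 1.32 ± 0.29, 1.01 ± 0.29 and 1.12 ± 0.29. With vehicle and without the library that stood apart the change of Acvr1 was 0.68 (adjusted p = 0.0134), and that of Nbl1 was 0.71 and no longer called (adjusted p = 0.112). Each of these 6 calls was also lost on leaving out other single libraries, with adjusted p from 0.0511 to 0.239. Nog, which encodes Noggin, went from 2.51 and 4.18 CPM with ethanol to 0.0328 and 0 CPM with 4OHT at 2 weeks, where it passed (adjusted p = 0.0106). Atoh8 rose with deletion in vehicle, from 5.51 and 11.6 CPM to 30.4 and 28.6 CPM (adjusted p = 0.00367), where its lowest library was the one that stood apart. Without that library its change was 1.34 (adjusted p = 0.000856) against 1.78 with it. Tcf4, an E protein, fell, with log2 changes of -0.90 ± 0.15 with vehicle, or -0.89 without the library that stood apart, and -0.73 ± 0.14 with MRTX1133, a call lost without 4OHT replicate 2 (adjusted p = 0.0846). MRTX1133 changed none of the 25 with Hnf4a intact and none after deletion, where 0.349% and 4.64% of all genes were called. In 1027B it raised Bmp3 and lowered Smurf1 and Msx1 among 25, where 6.27% of all genes were called. Each of these calls in 1027B was lost without any 1 of the 4 libraries.

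**Figure D4:**
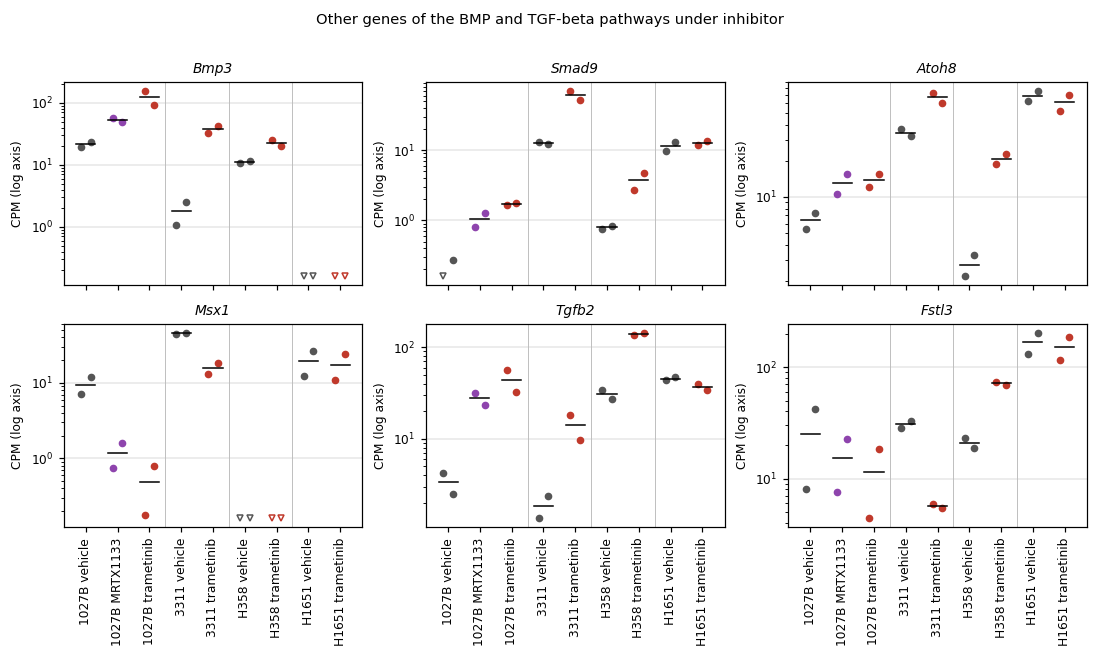
Levels of 6 other genes of the BMP and TGF-beta pathways in the vehicle and inhibitor libraries of 1027B, 3311, H358 and H1651, in CPM on log axes. Each point is 1 library (grey vehicle, purple MRTX1133, red trametinib), bars are means of 2 libraries, and open triangles are libraries under 0.162 CPM, drawn at that level. Smad9, Atoh8, Bmp3 and Tgfb2 are higher with trametinib in 1027B, 3311 and H358, while Fstl3 is lower in 3311 and higher in H358.

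The TGF-beta arm, the sister pathway that works through SMAD2 and SMAD3, was listed with 12 genes. With trametinib 4 of 11 rose and none fell in 1027B, 2 of 12 rose and 4 fell in 3311, and 6 of 12 rose and 1 fell in H358, where 26.7%, 39% and 46.8% of all genes were called. The ligand Tgfb2 rose in all 3, from 4.21 and 2.49 CPM to 56.3 and 32.6 CPM in 1027B (3.72 ± 0.37), from 1.37 and 2.35 CPM to 18.2 and 9.74 CPM in 3311 (2.91 ± 0.42) and from 33.8 and 27.5 CPM to 134 and 143 CPM in H358 (2.18 ± 0.13). MRTX1133 raised it in 1027B too (3.04 ± 0.37). Tgfb3, another ligand, rose with deletion in the 48-hour 3154 experiment, by 2.11 ± 0.33 with vehicle, or 1.69 without the library that stood apart, and 1.67 ± 0.30 with MRTX1133. The median changes of the arm were 0.12 in 1027B, -0.10 in 3311 and 0.31 in H358.

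In both species, genes outside the list followed Id1 more closely than any member did. Likeness is Pearson's r with Id1 of log2 CPM (prior count 2), each gene centred on its table's mean, and is a description without a test, since libraries of 1 group share their culture. Over the 22 mouse libraries, among 9483 genes with a mean of at least 10 CPM, the 5 genes outside the list most like Id1 were Pole4 (0.87), Cebpa (0.85), Abhd17a (0.83), Ppil1 (0.80) and Atg4d (0.80). Id3 stood at 0.65 (place 86 of the 9483), Id2 at 0.45 (place 676) and Bmp4 at 0.35 (place 1269). Both receptors were negative, Bmpr1a at -0.57 and Bmpr2 at -0.58. These values rest in part on the library that stood apart. Without it, an alternative chosen after seeing the data, Id3 stood at 0.31 (place 2695), Id2 at 0.76 (place 64) and Bmp4 at 0.58 (place 685). The receptors were still negative, Bmpr1a at -0.50 and Bmpr2 at -0.40, Pole4 was still first at 0.89, and the other 4 named genes stood at 0.64 to 0.79 and were no longer among the first 5. Over the 12 human libraries the 5 were EMC3 (0.96), SDF4 (0.94), CLPTM1L (0.93), RCC1 (0.93) and ZNF408 (0.93) among 10188 genes. BMP2 stood at 0.84 (place 94 of the 10188), SMAD7 at 0.82 (place 124), ID3 at 0.79 (place 194) and ID2 at 0.71 (place 445) there. Both receptors were positive, BMPR1A at 0.62 (place 872) and BMPR2 at 0.29 (place 3251).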

How the data were processed

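The deposited data are 7 gene-level count tables that the authors left unnormalized, with a column of whole-number counts for each of the 34 libraries per the file headers. Per the labels, poly(A) RNA was made into strand-specific libraries and read from both ends. Per the submitters' processing notes, cutadapt 3.5, STAR 2.7.6a and featureCounts 1.6.3 were used, and the builds mm10, mm39 and hg38 are named without saying which table used which. Whether counting used strand is not given in the sources used here. Every column of values was used.

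Each table was fitted in R 4.3.3 with edgeR 4.0.16 (filterByExpr, TMM, quasi-likelihood F-test), with Benjamini-Hochberg adjustment over all genes tested in the table, and the H358 and H1651 tables were joined for the difference of their responses. SE is the log2 change over the root of F. With 2 libraries a group no exact permutation test can go below 0.333. The same fits recovered known changes in simulated counts. DESeq2 1.42.0, other scalings and filters, a replicate block, smaller fits and leaving out each library were alternatives. A fit that leaves a group with 1 library assumes that it varies like the others. Replicate differences of the 1027B groups correlated at 0.414, 0.372 and 0.243, so those numbers were taken to pair the libraries. Exon lengths and overlaps come from GENCODE M21 on GRCm38, matched by gene identifier, and promoters from RefSeq on GRCm38.p6, matched by symbol. The 50 bases after each start and the human genes' positions were not used here.

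The members, lists and naming rule were chosen with earlier results of these data known. Members are given with a log2 change where called. Of the other lists, up to 3 called genes per list and comparison could be named, those that changed most, did not overlap between groups and reached 1 CPM in the higher one. Marker lists (epithelial, fibroblast, endothelial, immune and lung lineage, the last at 97.2 to 699.6 CPM summed) were checked in every library. An allele shared by the mouse cultures and the values of 1 listed gene are not reported here.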

Additional observations from a re-analysis of the deposited data

Results flagged for a closer look

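The trametinib response differed between H358 and H1651, by the interaction term, for ID2 (log2 difference 3.06), ID3 (1.65), BMP2 (1.22) and BMPR2 (1.01). Both lines received the same dose for the same time.

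In other pairs of cultures or conditions every treated library lay on one side of its control in the first and on the opposite side in the second. For trametinib in 1027B minus 3311, where doses differ, the differences were -2.64 for Bmp2 (-0.99 and 1.65), 0.58 for Bmpr1a (0.49 and -0.09) and -0.74 for Smad7 (-0.56 and 0.18), and these were not tested. For MRTX1133 in 3154 with Hnf4a intact minus after deletion they were 2.59 for Grem1 (0.69 and -1.90) and 0.54 for Smad6 (0.31 and -0.23). The same 2.59 for Grem1 separates deletion with vehicle (1.37) from deletion with MRTX1133 (-1.22). The interaction term tests these differences in 3154, and neither passed: the unadjusted p was 0.00143 for Grem1 and 0.0445 for Smad6, and the adjusted p over all genes were 0.541 and 0.651. The Grem1 values come from counts of 7 to 37 per library.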

How the results depend on the processing

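Of 231 values of members' called changes under other settings without leaving out a library, 226 kept direction and call and 5 lost the call, and with 1 library left out 124 did and 36 lost it, all 36 in the same direction. No called change reversed. With the replicate block, all 36 called changes kept their call, and the count of members called rose to 4 for deletion at 2 weeks, 7 for trametinib and 6 for MRTX1133 in 1027B, 5 between these inhibitors, 9 for trametinib in H358, 4 for trametinib in H1651 (ID1, ID2 and BMP2 lower, BMP4 higher), 7 for doxycycline and 9 for the difference of H358 and H1651. Outside 1027B the replicate numbers were not taken to pair the libraries (correlations of -0.251 to 0.549 in the 48-hour 3154 table, and single pairs at 0.126 to 0.623 elsewhere). Some of these values lie above those of 1027B. DESeq2 gave 2 members between the inhibitors and 3 for doxycycline (BMP2, ID1 and ID2, all higher). A minimum of 10 counts in every library gave 2 for deletion with vehicle and 1 for MRTX1133 after deletion, and fits of only the groups compared gave 2 and 5. With 1 library left out, the count of members ranged from 0 to 3 for deletion at 2 weeks, 2 to 6 with vehicle at 48 hours, 2 to 4 with MRTX1133, 0 to 2 for MRTX1133 with Hnf4a intact, 0 to 0 after deletion, 2 to 4 for trametinib and 1 to 2 for MRTX1133 in 1027B, and 1 to 2 for doxycycline. Leaving out a library also leaves fewer samples. The cause of the other changes was not tested. Over all genes, DESeq2 against edgeR called 2303 against 1421 for deletion at 2 weeks, 330 against 54 and 1334 against 717 for MRTX1133 before and after deletion, 1627 against 913 for MRTX1133 in 1027B and 451 against 247 for doxycycline. The block gave 4563 for deletion at 2 weeks, 6540 and 3515 for trametinib and MRTX1133 in 1027B, 2050 between them, 1881 for trametinib in H1651, 3048 for doxycycline and 8472 for the difference of H358 and H1651, against 1421, 3880, 913, 0, 0, 247 and 4087 without it. Fits of only the groups compared called 3154 genes against 4795 for deletion with vehicle, and 0 and 3932 against 54 and 717 for MRTX1133 before and after deletion. Depth limits Grem1, which had 37 counts or fewer in every organoid and H358 library.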
